A study of Mus musculus with 2 samples.

Results

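The 10 genes described here are the transcription factors Atf4, Ddit3, Atf5 and Atf3, the stress effectors Trib3, Chac1 and Sesn2, and the amino acid enzymes Asns, Psat1 and Phgdh, out of 20207 genes listed. They were picked by name as known members of the ATF4 and CHOP stress response, with the ratios between the 2 libraries already known, so those ratios are given as a description and not as a test. All 10 were found, and all 10 had at least 1 RPKM (reads scaled by gene length and library size) in the higher library, the level at which a gene is called measured here.

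The libraries came from mouse embryoid bodies, aggregates of differentiating embryonic stem cells, on day 6. The cells carried doxycycline-inducible short hairpin RNAs against HoxBlinc, a long noncoding RNA of the HoxB cluster. One library was made without doxycycline and one with 2 ug/ml doxycycline given from day 2. Each pooled the RNA of 2 hairpins, and the parental lines named are R1/E and CGR8 MHC-GFP, without saying which gave which library. Both libraries carry the hairpin constructs, and no culture with doxycycline but without a hairpin was analysed here, so effects of the drug itself and of hairpin induction cannot be told apart. With 1 library per group there is no replicate check, so the values compare this pair of libraries and do not extend to the conditions. Intervals are 95% and cover counting error only.

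The integrated stress response is a shared pathway by which cells answer amino acid shortage, unfolded protein in the endoplasmic reticulum, heme lack, mitochondrial faults or double-stranded RNA. Kinases specific to each stress phosphorylate the initiation factor eIF2, which slows translation in general but favours that of the Atf4 messenger. The ATF4 protein then binds composite C/EBP-ATF elements, often with a C/EBP partner, and turns on genes for amino acid supply, tRNA charging and, with CHOP (the product of Ddit3), for cell death. As ATF4 is controlled largely in translation, messenger levels do not measure its protein.

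RefSeq promoter windows, from 250 bases before to 50 after the gene start (build GRCm38.p6), were found for all 10 genes. They were searched on both strands for the core of the C/EBP-ATF element, TGATGNAA. It was present in Chac1, Trib3, Atf3 and Asns, 4 of the 10 genes, against 4.51% of the 27025 genes with a window. The stretches around it are shown 5′ to 3′ on the gene's strand, with the core in capitals, because they let the element that ATF4 reads be compared between genes with large and small differences. Nupr1 and Aars, other genes of the pathway described further on, are added for the same reason.
Chac1: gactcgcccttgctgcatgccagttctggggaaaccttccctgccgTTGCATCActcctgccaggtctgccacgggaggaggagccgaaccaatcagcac
Atf3: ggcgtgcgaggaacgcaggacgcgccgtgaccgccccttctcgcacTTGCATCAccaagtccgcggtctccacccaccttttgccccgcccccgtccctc
Asns: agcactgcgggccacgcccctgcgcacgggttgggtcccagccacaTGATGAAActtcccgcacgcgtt
Trib3: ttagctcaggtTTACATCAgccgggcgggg
Nupr1: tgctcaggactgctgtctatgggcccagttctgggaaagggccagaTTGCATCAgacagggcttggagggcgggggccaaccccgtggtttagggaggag
Aars: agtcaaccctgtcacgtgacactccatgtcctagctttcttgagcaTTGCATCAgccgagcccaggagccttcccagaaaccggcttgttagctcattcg

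The Chac1 stretch lies at chr2:119351003-119351102 on the plus strand, with the core 193 to 186 bases before the gene start. The Atf3 stretch lies at chr1:191183390-191183489 on the minus strand, with the core 110 to 103 bases before the start. In both genes, and in Nupr1 (chr7:126625527-126625626, minus strand) and Aars (chr8:111033684-111033783, plus strand), the core is on the strand opposite to the gene and reads TTGCATCA along it. Asns (chr6:7693210-7693278, minus strand) has the core on its own strand, as TGATGAAA, 23 to 16 bases before the start. In Trib3 (chr2:152344028-152344057, minus strand) it reads TTACATCA and lies 15 to 22 bases into the transcript. The same letters were not in the windows of Atf4, Ddit3, Atf5, Sesn2, Psat1 and Phgdh, which says nothing of elements elsewhere. The ER stress element, the composite site read by ATF6 with NF-Y, and the cyclic AMP element TGACGTCA were, on either strand, in 0 of the 10 windows, against 0.137% and 2.03% of all genes.

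Among the factors, Ddit3 and Atf5 stood highest above the library without doxycycline, Atf4 was higher by less, and Atf3 differed little. Atf4 (chromosome 15, 80085614 to 80087971, coordinates of the mm9 build used by the authors), the central factor of the response, had 2404 reads without and 2957 with doxycycline, levels of 22.7 and 37.1 RPKM. It was higher with doxycycline although that library was the smaller one. In CPM, reads scaled by the summed gene counts of their library, this was 64.9 against 119, or 1.83-fold higher (1.73 to 1.93).

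Ddit3 (chromosome 10, 126727849 to 126733344) encodes CHOP, a C/EBP relative that promotes cell death under lasting stress. It had 291 reads without and 620 with doxycycline, or 5.45 and 15.4 RPKM. This was the largest difference of the 4 factors, 3.17-fold higher in CPM (2.75 to 3.65). Its gene model overlaps that of the methionyl-tRNA synthetase gene Mars, and library strandedness is not given, so reads of the overlap cannot be assigned. Mars itself was at 36.2 RPKM without and 31.7 with doxycycline, the opposite order.

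Atf5 (chromosome 7, 52067628 to 52071942), a relative of ATF4 that is likewise controlled in translation and is linked to mitochondrial stress, had 311 and 483 reads. Its level was 2.97 RPKM without and 6.11 RPKM with doxycycline, 2.31-fold higher in CPM (2.00 to 2.67). Its model overlaps the nuclear pore gene Nup62, which was at 35.9 and 25.4 RPKM, again in the opposite order. Atf3 (chromosome 1, 192994176 to 193007212), a factor induced by many stresses and able to repress its targets, had 720 and 625 reads, or 5.95 and 6.84 RPKM. In CPM it was 1.29-fold higher (1.16 to 1.44), but on the authors' RMS scaling the ratio was 0.978, so its direction rests on the scaling.

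The effectors split further. Chac1 (chromosome 2, 119176978 to 119180060), an enzyme that breaks down glutathione and is induced through ATF4 and CHOP, was the lowest of the 10 genes in both libraries and had the largest ratio. It had 62 reads without and 168 with doxycycline, 0.646 and 2.32 RPKM. The fold was 4.03 (2.99 to 5.48), and with halved counts, as mates may have been counted singly, its interval was 2.64 to 6.29. Trib3 (chromosome 2, 152163161 to 152169796), a pseudokinase that binds AKT and restrains ATF4 in a feedback loop, had 198 and 376 reads, 1.58 and 3.97 RPKM. It was 2.82-fold higher (2.37 to 3.37).

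Sesn2 (chromosome 4, 132048722 to 132066371), a leucine sensor that holds back mTORC1 and answers to both ATF4 and p53, went the other way. It had 3394 reads without and 2142 with doxycycline, 20.9 and 17.5 RPKM, or 91.6 and 85.9 CPM. The fold was 0.938 (0.888 to 0.991), and with halved counts its interval, 0.868 to 1.01, included 1. Sesn2 was thus the only one of the 10 that was lower on the CPM, RPKM and RMS scalings alike.

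The enzymes had folds below that of Atf4, and Phgdh and Asns were the highest of the 10 genes per length in both libraries. Asns (chromosome 6, 7625171 to 7643182), asparagine synthetase, had 3586 reads without and 3875 with doxycycline, 30.4 and 43.5 RPKM. It was 1.61-fold higher (1.53 to 1.68). Psat1 (chromosome 19, 15979622 to 15999515), the aminotransferase of serine synthesis, had 2265 and 2424 reads, 17.4 and 24.6 RPKM. Its fold of 1.59 (1.50 to 1.69) was close to that of Asns, with overlapping intervals.

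Phgdh (chromosome 3, 98117094 to 98143892) catalyses the first step of the same serine pathway and was the highest of the 10 genes. It had 6000 and 5013 reads, 52.3 RPKM without and 58.0 RPKM with doxycycline. The fold was 1.24 (1.20 to 1.29), below that of Psat1, and the RMS-scaled ratio was 0.941, so its direction too depends on the scaling. RefSeq names a pseudogene of it, Phgdh-ps1, which the tables do not list, so reads shared with such a copy cannot be told apart.

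**Figure D1:**
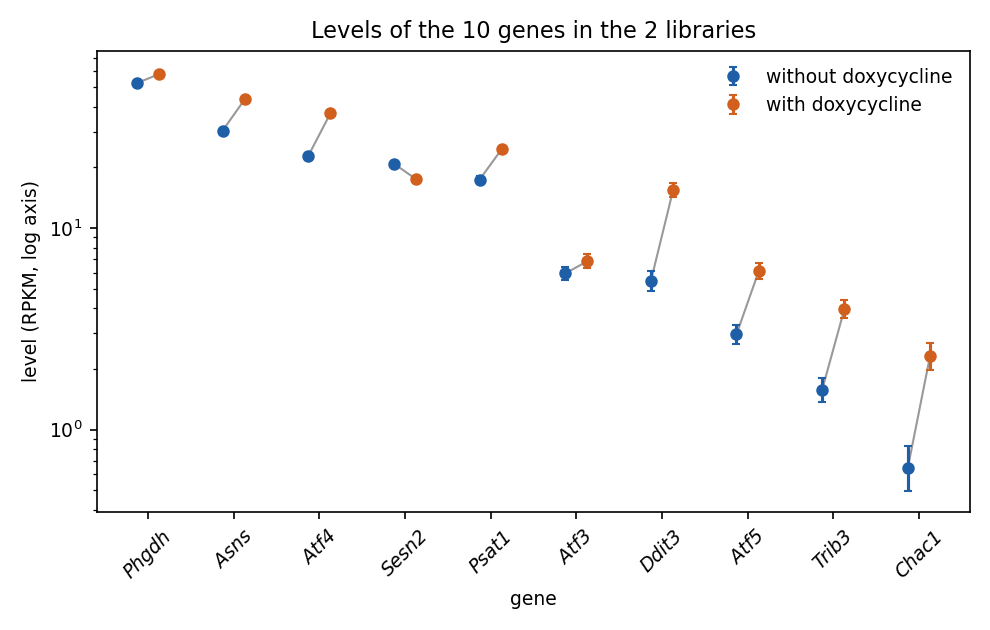
Level of each of the 10 genes in RPKM (log axis) in the library without (blue) and with (orange) doxycycline, ordered by the level without, with 95% counting intervals. The lines climb most steeply for Ddit3, Atf5, Trib3 and Chac1, and Sesn2 is the one line that descends.

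Per length, the order of the genes was nearly alike in both libraries. Phgdh, Asns and Atf4 held the first 3 places in each and Atf5, Trib3 and Chac1 the last 3. Psat1 passed Sesn2, and Ddit3 passed Atf3. Without doxycycline Atf3 and Ddit3 had overlapping counting intervals (5.52 to 6.40 and 4.84 to 6.12 RPKM), and with it those of Atf3 and Atf5 overlapped (6.32 to 7.40 and 5.58 to 6.68). Other neighbours in either order were apart by more than counting error. The range from the highest to the lowest gene narrowed, as the lowest ones had the larger ratios.

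**Figure D2:**
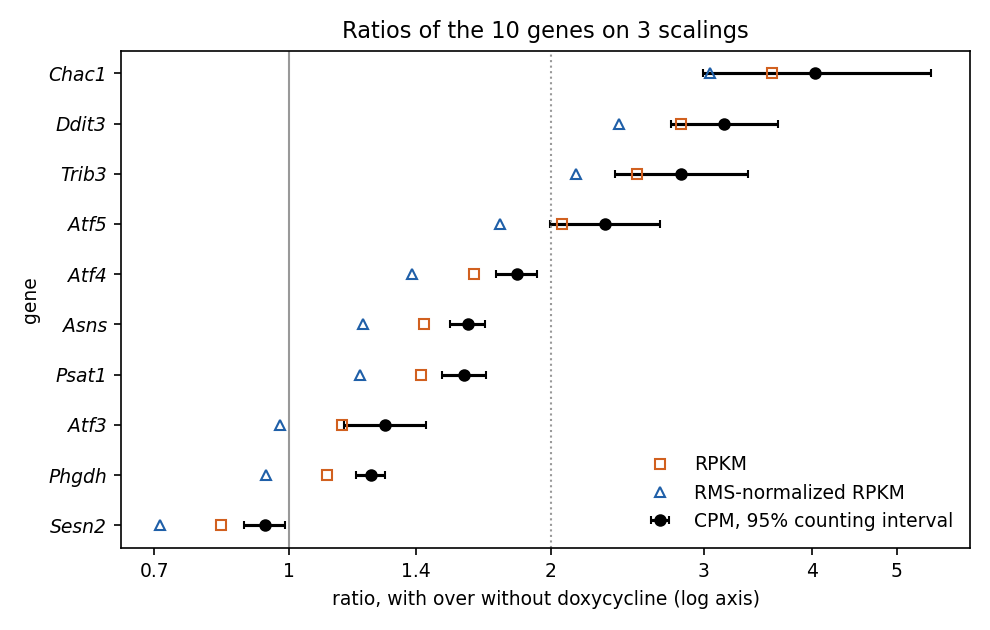
Ratio of each gene, with over without doxycycline (log axis), as CPM with its 95% counting interval (black), as RPKM (squares) and as RMS-normalized RPKM (triangles), with lines at 1 and 2. Chac1, Ddit3 and Trib3 lie beyond 2 on all 3 scalings, while Atf3 and Phgdh lie on either side of 1.

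Read counts set against those of Atf4 in the same library do not depend on library scaling. For every 100 Atf4 reads there were 12.1 Ddit3 reads without and 21.0 with doxycycline, 1.73 times as many (1.49 to 2.02). Chac1 went from 2.58 to 5.68 (2.20 times, 1.63 to 3.01) and Trib3 from 8.24 to 12.7 (1.54 times, 1.29 to 1.86). Both factors and effectors were thus among the genes that gained on Atf4. Atf5 gained less, 1.26 times (1.08 to 1.48).

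The 3 enzymes lost ground to Atf4 although their own levels in RPKM were higher. Asns stood at 149 reads per 100 Atf4 reads without and 131 with doxycycline, 0.879 times as many (0.818 to 0.943), and Psat1 at 0.870 times (0.804 to 0.942). Phgdh went from 249.6 to 169.5 (0.679 times, 0.636 to 0.726). Atf3, at 0.706 times (0.625 to 0.797), and Sesn2, at 0.513 times (0.475 to 0.554), also lost ground. With halved counts all 9 of these intervals still lay on the same side of 1.

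**Figure D3:**
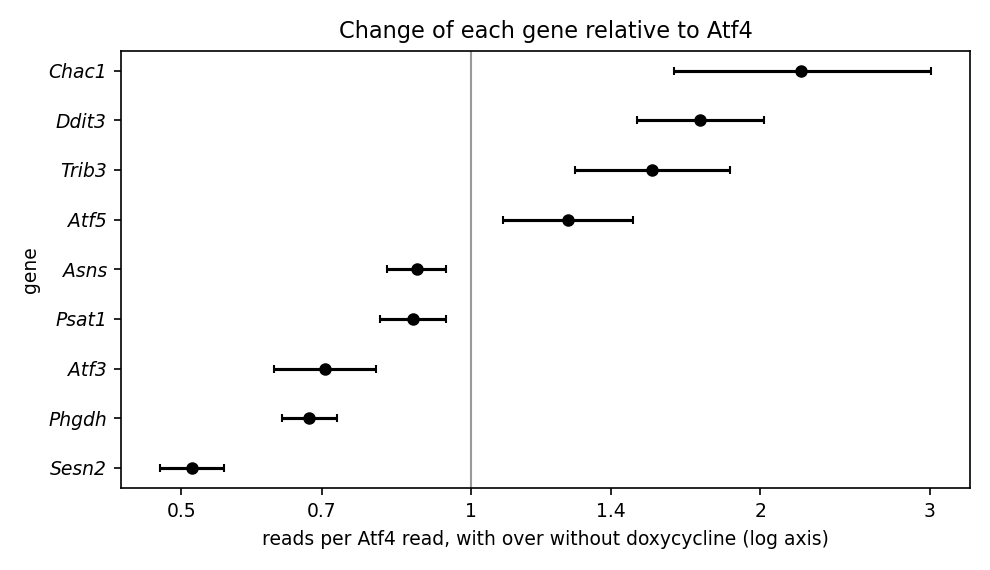
Reads of each gene per Atf4 read, with over without doxycycline (log axis), with exact 95% counting intervals. Chac1, Ddit3, Trib3 and Atf5 lie above 1, and Asns, Psat1, Atf3, Phgdh and Sesn2 lie below it.

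By the ratio of RPKM with 0.5 added to both levels, an addition that shrinks the ratio of low genes, 3 of the 10 genes were at least 2-fold higher with doxycycline, against 0.262% of the 11063 measured genes, and 0 were at least 2-fold lower, against 2.64%. Nothing is read from these shares, as the genes were chosen on that contrast. The 3 were Ddit3, Chac1 and Trib3, with values of 1.42, 1.30 and 1.11 for this ratio in log2 units, called the log2 ratio from here on. Atf5 lay just under the threshold, at 0.93. The median of the 10 genes was 0.60, and that of all measured genes -0.18.

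The CPM interval lay above 1 for 9 of the 10 genes, against 28.6% of measured genes with the same gene model in both tables, and below 1 for 1, against 36.8%. Of all measured genes, 16 had a higher log2 ratio than Ddit3, 18 than Chac1, 23 than Trib3 and 35 than Atf5. For Atf4 it was 74, for Asns 170 and for Psat1 182. Atf3 and Phgdh were less far out, with 881 and 1132 genes above them, 7.96% and 10.2% of those measured. Sesn2 had 61.1% above it and so lay in the body of the distribution.

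**Figure D4:**
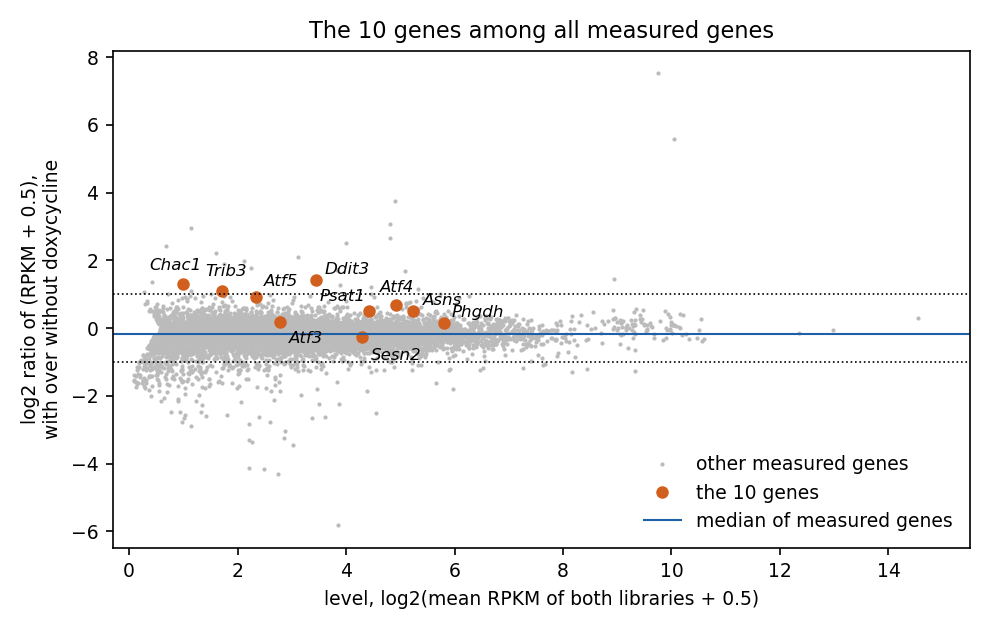
Log2 ratio of (RPKM + 0.5), with over without doxycycline, against level (log2 of the mean RPKM of both libraries + 0.5) for 11063 measured genes (grey) and the 10 genes (orange), with the median of measured genes in blue and 2-fold lines dotted. Ddit3, Chac1 and Trib3 lie above the upper line, and Sesn2 lies near the blue line at -0.18.

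The genes nearest to Chac1, Ddit3 and Trib3 by distance in log2(RPKM + 0.5) over the 2 libraries were mostly not stress genes. With only 2 points per gene this likeness is a matter of level and ratio alone. Cpeb1 (0.887 and 2.49 RPKM) and Pygm (0.878 and 2.04) were nearest to Chac1. Lars2, the mitochondrial leucyl-tRNA synthetase gene, was at 6.19 and 21.3 RPKM and, with Adssl1 (6.36 and 12.7), nearest to Ddit3. Chrnb1 (1.80 and 3.90) and Clic5 (1.61 and 3.39) were nearest to Trib3.

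Other genes of the pathway were taken as 13 lists with 149 genes, of which 148 were found and 141 measured (Ppp1r15a, a subunit of the eIF2 phosphatase, was not analysed here). Of these, 1 was at least 2-fold higher and 0 were at least 2-fold lower, where 0.262% and 2.64% of all measured genes were. The one was Nupr1, a small stress-induced chromatin protein that carries the core shown earlier. It had 22 reads without and 130 with doxycycline, 0.574 and 4.49 RPKM, and was 8.78-fold higher (5.56 to 14.5), more than any of the 10 genes. The list of other ATF4 and CHOP targets to which it belongs had a median log2 ratio of -0.11, against -0.18 for all measured genes.

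Most other measured members of that list were lower by the log2 ratio. Stc2, Eif4ebp1 and Tnfrsf10b were higher, with log2 ratios of 0.55, 0.31 and 0.21. Ndrg1, a gene also induced by hypoxia, had a log2 ratio of -0.96, 9.53 RPKM without and 4.64 with doxycycline. Vegfa, the endothelial growth factor, had -0.63, and Ero1l, an oxidase of the endoplasmic reticulum known as a CHOP target, -0.59. Ero1l, at 16.8 and 11.1 RPKM in the same order, thus went the opposite way to Ddit3. In this list 4 of 13 measured genes had a ratio above 0, against 23.1% of all measured genes.

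The list of eIF2 kinases, phosphatase and exchange factor had a median of -0.13, near the -0.18 of all measured genes. It also holds regulators of the kinases and the gene for eIF2 alpha, Eif2s1. Of its 13 measured genes, 0 were past 2-fold. As only 0.262% of all measured genes were that much higher and 2.64% that much lower, nothing is read from this count. Impact, which inhibits the amino acid sensing kinase GCN2, was the highest at 0.32 (28.9 and 36.1 RPKM). Gcn1l1, which activates GCN2, was at -0.36, the exchange factor subunit gene Eif2b5 at -0.35, and Eif2ak1, the heme-regulated kinase, at -0.28. These are messenger levels and do not measure phosphorylation. Of the bZIP partners and relatives 0 of 15 were past 2-fold (median -0.08), again near the shares of all measured genes. Among them were Cebpd at 0.25, Atf1 at -0.37, Jun at -0.49 and Atf6b at -0.53.

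Amino acid transporter genes had the highest median of the 13 lists, 0.19, against -0.18 for all measured genes. Of 8 measured, 5 were above 0, against 23.1% of all measured genes. Slc7a3, a carrier of arginine and lysine, had 454 and 674 reads and 3.13 and 6.15 RPKM, 2.21-fold higher in CPM (1.96 to 2.49). The neutral amino acid carrier Slc1a4 was 1.67-fold higher (1.51 to 1.85) and Slc7a1, another carrier of arginine and lysine, 1.64-fold (1.48 to 1.81). Slc7a11, the cystine carrier and a known ATF4 and NRF2 target, had a fold of 0.826 (0.745 to 0.916). Its promoter window held the core, as did that of Slc1a4, so the presence of the letters went with ratios on both sides of 1.

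The cytosolic tRNA synthetase genes, which charge tRNAs with amino acids, were divided by background knowledge into known ATF4 targets and others. This was done with results of these data already known, so all counts given for the 2 lists are a description. Of 12 known targets 9 had a log2 ratio above 0 (23.1% of all measured genes had), with a median of 0.09. Of 8 others 1 had, with a median of -0.25. Cars, Aars and Nars, for cysteine, alanine and asparagine, led with 0.25, 0.22 and 0.19, and Mars was lowest at -0.19. The others were lowest for Vars, Farsa, Kars and Dars, at -0.55, -0.42, -0.33 and -0.29. The core was in the windows of 5 of 8 known targets with a window (Aars, Gars, Iars, Tars and Yars). It was in those of 0 of 5 others, and of 4.51% of all genes with a window. All these differences were under 2-fold.

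Of the serine, glycine and one-carbon enzymes beyond Psat1 and Phgdh, 1 of 6 measured was above 0, against 23.1% of all measured genes. The list median was -0.20, near the -0.18 of all measured genes. The gene above 0 was Mthfd2, the mitochondrial folate enzyme and a known ATF4 target. It had 1056 and 1254 reads, 8.33 and 13.1 RPKM, and a fold of 1.77 (1.63 to 1.92). Shmt2, the mitochondrial serine hydroxymethyltransferase, had a fold of 0.950 (0.879 to 1.03), which includes 1. Its cytosolic counterpart Shmt1 was at 0.746 (0.695 to 0.800) and Mthfd1l at 0.803 (0.760 to 0.848). Of the other amino acid synthesis enzymes 0 of 8 were past 2-fold (median -0.15), where 0.262% of all measured genes were higher and 2.64% lower by that much. Gpt2, an alanine aminotransferase, was at 0.33 on the log2 scale, Pycr1 at -0.28, Cbs at -0.39 and Glul, glutamine synthetase, at -0.55.

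**Figure D5:**
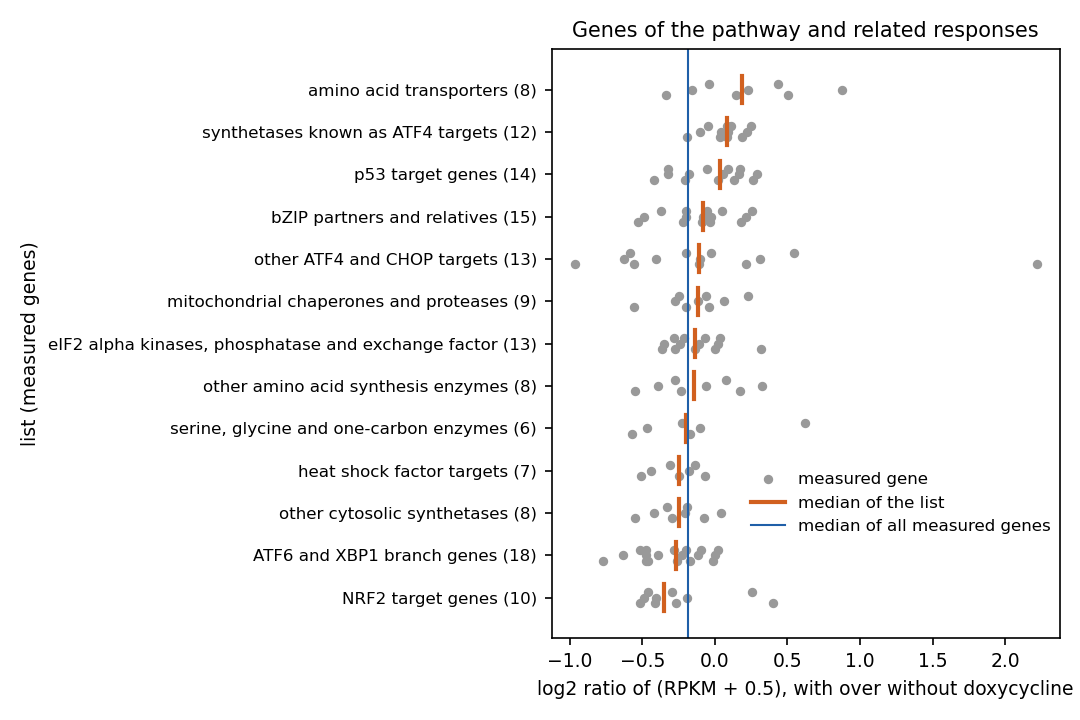
Log2 ratio of (RPKM + 0.5), with over without doxycycline, of each measured gene (grey) in the 13 lists, with list medians (orange) and the median of all measured genes (blue). Transporters, known ATF4 target synthetases and p53 targets have medians of 0.19, 0.09 and 0.04. ATF6 and XBP1 branch genes have a median of -0.27, and Nupr1 stands alone at 2.22.

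The lists of the other arms of the unfolded protein response were nearer to the body of all genes than Ddit3 was. Genes of the ATF6 and XBP1 branches, which raise folding capacity in the endoplasmic reticulum, had 1 of 18 measured above 0, against 23.1% of all measured genes, and a median of -0.27. In CPM most folds were still below 1, but some genes were slightly higher. Calr and Canx had folds of 1.05 (1.03 to 1.07) and 1.03 (1.02 to 1.05). Sec61b and Dnajc3 had 1.141 (1.067 to 1.219) and 1.112 (1.055 to 1.171), so the direction of such genes depends on the scaling. Sdf2l1, a cofactor of the chaperone BiP, was at -0.77 (8.93 RPKM without and 5.02 with doxycycline), the factor Xbp1 at -0.64, and the disulfide isomerases Pdia4 and Pdia6 at -0.52 and -0.48. Relative to all measured genes the median was -0.09. The ER stress element was in the windows of 8 of 16 of these genes, among them Hspa5 and Hsp90b1, against 0.137% of all genes. It was in none of the other 12 lists. These genes were picked as known members of the branches, so nothing is read from its presence.

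Mitochondrial chaperones and proteases had a median of -0.12 over 9 genes, with Hspa9, the matrix chaperone, at 0.23 and the protease Lonp1 at -0.56. Hspd1 was at -0.24 and Clpx at -0.28. NRF2 targets, the oxidative stress genes, had a median of -0.35 over 10 genes, including Gclc at -0.51, G6pdx at -0.49, Tkt at -0.46 and Txnrd1 at -0.41. Heat shock factor targets had 0 of 7 above 0, against 23.1% of all measured genes. Their median was -0.25, with Dnajb1 at -0.51, Hsph1 at -0.44, Hspa8 at -0.31 and Hspa1b at -0.25. In these 3 lists 0 genes were past 2-fold, where 0.262% of all measured genes were higher and 2.64% lower by that much.

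Targets of p53, the other known regulator of Sesn2, had 8 of 14 measured above 0, against 23.1% of all measured genes. Their median was 0.04, against -0.18 for all measured genes. The p53 list thus lay 0.22 above that -0.18, and the known ATF4 target synthetases 0.27 above it. A shift of this kind was therefore not particular to the lists of ATF4 targets, and its cause was not tested. The 4 with the largest absolute log2 ratios were mostly lower, unlike the list. Btg2, an antiproliferative gene, was at 0.29, while Bbc3, Ei24 and Phlda3 were at -0.32, -0.32 and -0.42. Other genes above 0 had smaller ratios, among them Trp53inp1 at 0.26, Pmaip1 at 0.18 and Perp at 0.17. In CPM the median fold of the list was 1.15. Sesn1, the p53-responsive relative of Sesn2, was at -0.18, which is also the median over all measured genes, and was chosen after its value was seen.

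Marker RNA of the cell types that embryoid bodies can hold also differed between the libraries. Summed RPKM of pluripotency markers was 153 without and 111 with doxycycline, of streak and mesoderm markers 24.0 and 7.18, and of endoderm markers 26.2 and 7.53. Within the mesoderm list T, brachyury of the primitive streak, went the other way, from 0.909 to 4.79 RPKM, while Hand1 and Kdr were lower. Blood markers went from 38.0 to 0.512, with Hbb-bh1, Hba-x and Hbb-y at 0 reads with doxycycline, and heart muscle markers from 47.8 to 26.5, with Nkx2-5 at 0. Much of the heart sum was Myh7, at 21.7 and 21.6 RPKM, whereas Myl7 went from 12.2 to 0.147. Neural markers stood at 17.0 and 15.4 in sum, mostly through Nes at 11.0 and 11.2. Of the 4, 2 (Pax6 and Tubb3) were at least 2-fold lower, against 2.64% of all measured genes. Sox1 was higher, at 3.03 RPKM without and 3.65 with doxycycline. Fibroblast markers, the type of the feeder cells, stood at 93.2 and 50.2. This sum was mostly Col1a2 (51.54 and 29.95 RPKM) and Col1a1 (26.23 and 16.01). Dcn, with 1 and 2 reads, and Thy1, with 34 and 15, were below the 1 RPKM level, so the sum does not measure feeder cells. Of the 43 markers in 7 lists, Mixl1 was the other one at 0 with doxycycline. Their part in the values of the 10 genes was not tested, and in bulk RNA fewer cells of a type and less RNA per cell cannot be told apart. The deposited gene counts totalled 37046449 in the library without doxycycline and 24924921 in the other, and the smallest count among the 10 genes was 62, for Chac1.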

How the data were processed

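The data are 2 RNA-seq libraries of day 6 embryoid bodies, 1 per condition, so no test was run and no p-value is given. Per the file headers, the authors deposited an RPKM, a read count and an RMS-normalized RPKM for each gene. The deposited Z-score, a score that the authors centred and scaled over the RPKM of a library, was not used. The deposited counts are estimated counts, with fractional values at 1062 genes in the library without doxycycline and at 825 in the other. The RMS-normalized RPKM was made by the authors as a ratio, with the root mean square over all genes (175.7 and 206.7 RPKM) as its denominator. The submitters' processing notes name Bowtie2 and mm9. How reads were assigned to genes, with which annotation, and whether by strand is not given in the sources used here.

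Library tables were joined by gene name. All 80 values of the 10 genes in the deposited merged tables equalled them exactly. CPM is the count over the total gene count of the library. Folds are CPM ratios, with 95% Clopper-Pearson intervals from the rounded counts conditional on their sum. Levels carry exact Poisson intervals, and changes relative to Atf4 are conditional odds ratios. Mates of a pair may have been counted singly, so intervals were recomputed with halved counts. RPKM folds are lower than CPM folds by a factor of 1.12, because the RPKM denominators stood in a ratio of 1.33 and the gene counts in a ratio of 1.49. The log2 ratio is of (RPKM + 0.5), for genes with at least 1 RPKM in the higher library, and understates differences of low genes. As a check of the calculation, Poisson counts were simulated for 10964 genes, without variation between cultures. At 2-fold, 99.5% of 200 genes set 4-fold apart were called, as were 0 of the others. The interval covered the true fold for 95.0% of genes. Counting error was the only error drawn, so this says nothing of differences between cultures.

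The 10 genes and all lists were chosen with earlier results of these data known. The genes named were all 10, from each list up to 4 with the largest absolute log2 ratio, and the 2 nearest genes to Chac1, Ddit3 and Trib3. Other genes named were chosen after their values were seen. Promoter windows of 250 bases before to 50 after the gene start were taken from RefSeq (GRCm38.p6), matched by symbol or synonym, and no coordinate was carried between that build and mm9. Python 3.11.15, pandas 2.3.3, SciPy 1.17.1 and Matplotlib 3.10.9 were used.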

Additional observations from a re-analysis of the deposited data

How the results depend on the processing

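The median ratio of the 10 genes, 1.72 in CPM, was 1.53 as RPKM and 1.30 as RMS-normalized RPKM, 1.76 with centring, and 1.72 with halved counts and in the merged tables. On the RMS scaling the direction turned for Atf3 (0.978) and Phgdh (0.941). Ddit3 and Chac1 were past 2-fold under all 6 alternatives to the scale and threshold, and 2 to 4 of the 10 genes were. Atf5 was added with a pseudocount of 0.1, with CPM and with centring, and Trib3 was missing with a pseudocount of 1 and with RMS scaling. Of the other genes of the pathway, 2 in place of 1 were at least 2-fold higher with CPM or with centring, and 1 in place of 0 was at least 2-fold lower with a pseudocount of 0.1. List medians of the log2 ratio turned from below to above 0 with CPM for the eIF2 list (-0.13 to 0.03), the bZIP list (-0.08 to 0.08), the other amino acid synthesis enzymes (-0.15 to 0.01), the other ATF4 and CHOP targets (-0.11 to 0.06) and the mitochondrial list (-0.12 to 0.04), and also with centring. The median of the known target synthetases was 0.25 with CPM and 0.27 with centring in place of 0.09. With centring, 20.6% of all genes past 2-fold were higher ones, with CPM 15.2% and in RPKM as deposited 9.03%. The number of genes past 2-fold was 29 higher and 292 lower on the main scale, 54 and 302 with CPM, 50 and 193 with centring, 46 and 406 with a pseudocount of 0.1, 22 and 178 with a pseudocount of 1, and 20 and 475 with RMS scaling. The causes were not tested beyond the construction of each scale. No paired analysis was possible because each group held 1 library. Depth limits Chac1 most, with 62 reads in the library without doxycycline.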

Other observations

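Presence of the C/EBP-ATF core in the promoter window did not by itself go with a higher median ratio across the transcriptome. Of 11063 measured genes 7706 had a window under the same symbol, and 199 of these held the core. Their median log2 ratio was -0.18, the same as the -0.18 of all 7706, and -0.19 without the 10 genes. Of the 16 genes with a window that were at least 2-fold higher with doxycycline, 4 held the core: Chac1, Trib3, Nupr1 and Tnnt1, a slow skeletal troponin T gene. Chac1 and Trib3 are among the 10 genes chosen on this contrast. Without the 10 genes, 2 of 195 genes with the core were at least 2-fold higher. The 16 of all 7706 still include Ddit3, Chac1 and Trib3, so these counts are of unlike gene sets. These values were looked at after the ratios were known and were not tested.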
